A study of Homo sapiens with 18 samples.

Results

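Connexins are the proteins of gap junctions, and the RNA of 5 connexin genes was followed here through a breast cancer progression series, namely GJA1, GJB2, GJB5, GJB6 and GJC1. They are 5 of the 35933 genes with values, and were picked by gene symbol, with earlier results of these data known. MCF10A is a spontaneously immortalized, benign human breast epithelial line, MCF10AT1 is a derivative of it that carries a mutated HRas, and MCF10CA1H is a malignant line that arose from MCF10AT1 cells by serial mouse xenografts. From each parent, cells labelled Control Negative CRISPR were compared with cells labelled METTL3 CRISPR knockdown, giving 6 groups of 3 libraries with the letters a, b and c. METTL3 is the methyltransferase that writes N6-methyladenosine (m6A) into mRNA. The knockdown lines came from transient CRISPR/Cas9 transfection aimed at exon 1 of METTL3, cell sorting and clonal selection. Each group is therefore a single CRISPR line, and differences between clones of the same kind are not part of the replicate spread. All groups grew in the same DMEM/F12 medium with horse serum, insulin, hydrocortisone, cholera toxin and epidermal growth factor. The labels do not say whether a, b and c were separate cultures, so p-values measure only the spread between these libraries, which may be technical.

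Gap junctions join the cytoplasm of neighbouring cells. Connexin subunits assemble into a ring, the connexon, in the membrane of one cell, which docks with a connexon of the next cell to form a channel for ions and small metabolites. GJA1 encodes Cx43, the most widely expressed connexin, which in the breast is typical of the basal myoepithelial layer. GJB2 encodes Cx26, a beta connexin of many glandular epithelia and of the inner ear, where its loss is a common cause of hereditary deafness. GJB6 encodes Cx30, its neighbour on the chromosome, also of the inner ear and the skin. GJB5 encodes Cx31.1, a beta connexin of skin and other stratified epithelia. GJC1 encodes Cx45, a connexin best known from heart and vascular smooth muscle.

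The genes lie at 4 places in the genome (hg38, GENCODE annotation). GJA1 (ENSG00000152661) occupies chr6:121435595-121449727 on the plus strand. GJB2 (ENSG00000165474) at chr13:20187463-20192938 and GJB6 (ENSG00000121742) at chr13:20221962-20232365 are both on the minus strand. GJB5 (ENSG00000189280) is at chr1:34755047-34758512 on the plus strand, and GJC1 (ENSG00000182963) at chr17:44798448-44830816 on the minus strand. RefSeq promoter windows of GRCh38.p14, from 250 bases before to 50 bases after the annotated start, were at hand for 3 of the 5 genes, GJA1, GJB2 and GJB6. They are shown because these genes span the range of levels below, from a gene that goes between near 0 and much higher levels to a gene near 0 throughout. Capitals mark matches, on either strand, to the AP-1 motif TGACTCA, the GC box GGGCGG, the E-box CACCTG or the TATA motif TATAAA.
GJA1, chr6:121435396-121435695, plus strand: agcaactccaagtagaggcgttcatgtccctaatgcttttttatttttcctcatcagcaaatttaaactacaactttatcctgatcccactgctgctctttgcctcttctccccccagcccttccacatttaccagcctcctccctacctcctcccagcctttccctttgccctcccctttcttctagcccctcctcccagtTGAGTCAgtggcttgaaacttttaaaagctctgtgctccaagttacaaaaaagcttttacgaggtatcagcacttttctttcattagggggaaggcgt
GJB2, chr13:20192889-20193188, minus strand: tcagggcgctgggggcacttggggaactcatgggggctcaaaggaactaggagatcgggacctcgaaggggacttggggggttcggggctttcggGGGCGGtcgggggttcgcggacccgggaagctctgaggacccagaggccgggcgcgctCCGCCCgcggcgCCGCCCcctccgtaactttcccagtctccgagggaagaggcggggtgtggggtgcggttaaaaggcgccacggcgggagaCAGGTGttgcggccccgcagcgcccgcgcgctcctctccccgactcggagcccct
GJB6, chr13:20230929-20231228, minus strand: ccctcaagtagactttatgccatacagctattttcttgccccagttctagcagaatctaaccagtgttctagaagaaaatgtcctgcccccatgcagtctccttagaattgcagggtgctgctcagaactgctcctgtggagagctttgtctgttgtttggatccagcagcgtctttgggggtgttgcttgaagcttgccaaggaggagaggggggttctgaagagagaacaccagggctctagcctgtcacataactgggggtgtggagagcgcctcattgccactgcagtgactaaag
The GJA1 window held 1 TGACTCA, on the strand opposite to the gene, at position -48 from the start, a motif found in 4.95% of the 35116 windows of that length. The GJB2 window was rich in G and C (71.7%, against a median of 58.7% over all windows and 47.0% for GJA1 and 51.3% for GJB6). It held 3 copies of GGGCGG at -155, -97 and -85, a motif found in 45.0% of windows, and 1 CACCTG at -5, found in 20.6%. TATAAA, found in 11.5% of windows, was in none of the 3, and the GJB6 window held none of the 4 motifs. The GJB6 window lies wholly inside the GENCODE bounds of the gene given above, so its RefSeq start is not the outermost GENCODE start. A match describes the letters only, and binding was not measured.

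Because METTL3 methylates adenosines within short motifs of which GGACT is a common form, the GGACT nearest to the stop codon in the MANE Select transcript (GENCODE v44, hg38) is shown for each gene, as 21 bases in the sense of the transcript with the motif in capitals. Distances before or after the stop codon run between its first base and the A of the motif.
GJA1, chr6:121448532-121448552, 548 bases after the stop codon: gtgtcaatGGACTtgtgctac
GJB2, chr13:20189036-20189056, coding, 143 bases before the stop codon: aacactgtGGACTgctttgtg
GJB5, chr1:34758155-34758175, 15 bases after the stop codon: ggctgcctGGACTggtctggc
GJB6, chr13:20222426-20222446, 261 bases after the stop codon: ttttaagtGGACTctctgaca
GJC1, chr17:44804480-44804500, 139 bases after the stop codon: agctcaggGGACTctggaggc
The transcripts held 3 (GJA1), 2 (GJB2), 4 (GJB5), 3 (GJB6) and 8 (GJC1) copies of GGACT, which is 0.973, 0.873, 2.95, 1.45 and 1.04 per kilobase, against a median of 0.924 over 19061 transcripts. GJB5 was the only one of the 5 with a GGACT within 100 bases of the stop codon, as had 21.8% of all transcripts. Methylation was not measured in these files, so nothing is known here of which motifs carried m6A.

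RNA levels are given as DESeq2-normalized counts as deposited, which are comparable between libraries for a given gene but are not per length, so levels of different genes are not compared. Summed over all genes they ranged from 21347352 to 31681834 per library. The depth behind each gene is unknown, and no counting interval is given. METTL3 RNA did not fall in every line: the log2 fold change of labelled knockdown over control was 0.33 in MCF10A (adjusted p = 0.618) and -0.17 in MCF10AT1 (adjusted p = 0.707), and it was -0.49 in MCF10CA1H (adjusted p = 0.0234, limma). A CRISPR cut in exon 1 need not lower the RNA. The study also measured METTL3 protein by Western blotting, METTL3 mRNA by real-time PCR and m6A by an antibody assay in its lines, none of which is in the files used here, and the groups are called labelled knockdown below. All 6 basal epithelial markers reached a mean of 10 normalized counts in each group, as did 7 or 8 of the 8 general epithelial markers. So did 5 to 9 of 10 mesenchymal markers, with 9 in the MCF10AT1 labelled knockdown and the MCF10CA1H control, so this floor does not tell cell types apart.

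GJA1 varied most of the 5 genes on the log2 scale. In the negative controls its normalized counts were 280.2, 172.2 and 159.1 in MCF10A, 0, 0 and 3.26 in MCF10AT1, and 736, 983 and 686 in MCF10CA1H. The 3 lines did not overlap: the gene was near 0 in the HRas line and highest in the malignant line. Control groups did not overlap for 37.5% (MCF10AT1 against MCF10A), 63.5% (MCF10CA1H against MCF10A) and 41.0% (MCF10CA1H against MCF10AT1) of all genes tested. The labelled knockdown libraries read 18.4, 12.5 and 24.5 in MCF10A, 177.7, 133.2 and 571.0 in MCF10AT1, and 818, 616 and 620 in MCF10CA1H. GJA1 was therefore low where it had been present in MCF10A, present where it had been near 0 in MCF10AT1, and in overlapping ranges in MCF10CA1H. By group mean the order was MCF10CA1H control, MCF10CA1H labelled knockdown, MCF10AT1 labelled knockdown, MCF10A control, MCF10A labelled knockdown and MCF10AT1 control. Within that order the MCF10CA1H groups overlapped each other, as did the MCF10AT1 labelled knockdown and the MCF10A control, and the other neighbours did not.

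GJB2 was highest in MCF10A. Its controls gave 2021, 2051 and 2004 in MCF10A, 267, 249.1 and 229 in MCF10AT1, and 277, 263 and 295 in MCF10CA1H. The MCF10A controls stood apart from those of the other lines, and the controls of the HRas line and the malignant line overlapped. Over all genes tested, MCF10A controls did not overlap those of MCF10AT1 for 37.5% and those of MCF10CA1H for 63.5%. The labelled knockdown libraries gave 3336, 2196 and 2484 in MCF10A, 293, 679 and 907 in MCF10AT1, and 389, 353 and 376.5 in MCF10CA1H. In each line all 3 labelled knockdown libraries were above all 3 controls, as groups did not overlap for 23.9% (MCF10A), 32.8% (MCF10AT1) and 32.7% (MCF10CA1H) of all genes tested, and none of the 3 differences passed the test given below. Both MCF10A groups were above every other group, and below them the MCF10AT1 labelled knockdown overlapped the MCF10CA1H labelled knockdown.

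GJB5 was abundant in 5 of the 6 groups. Its controls gave 3033, 2995 and 4720.5 in MCF10A, 1382, 2236 and 1212 in MCF10AT1, and 2118, 1946 and 1920 in MCF10CA1H. MCF10A was again the highest line, and MCF10AT1 and MCF10CA1H overlapped. The labelled knockdown libraries gave 2552, 2641 and 3106 in MCF10A, 364, 201 and 46.3 in MCF10AT1, and 2499, 2731 and 2354 in MCF10CA1H. The MCF10AT1 labelled knockdown group lay below every other group. Its 3 libraries were spread widely, with replicate c lowest, the replicate that was highest for GJA1 and GJB2 in that group.

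GJC1 varied least on the log2 scale among the 4 genes that could be tested. Its controls gave 124.8, 108.3 and 157.4 in MCF10A, 76.7, 170.3 and 84.6 in MCF10AT1, and 221.9, 176.1 and 168.6 in MCF10CA1H. The labelled knockdown libraries gave 53.2, 79.0 and 52.2 in MCF10A, 163.1, 183.9 and 79.7 in MCF10AT1, and 224.2, 193.2 and 259.7 in MCF10CA1H. Every neighbouring pair of groups in the order of means overlapped, from the MCF10CA1H labelled knockdown (mean 226) down to the MCF10A labelled knockdown (mean 61.5). GJB6 was listed at 0 in 14 of the 18 libraries. The others were MCF10A control a (0.94) and b (1.64), MCF10A labelled knockdown a (0.91) and MCF10CA1H labelled knockdown c (0.97). It stayed under the minimum mean of 10 required for a test in all comparisons, so the tests below cover 4 of the 5 genes.

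**Figure D1:**
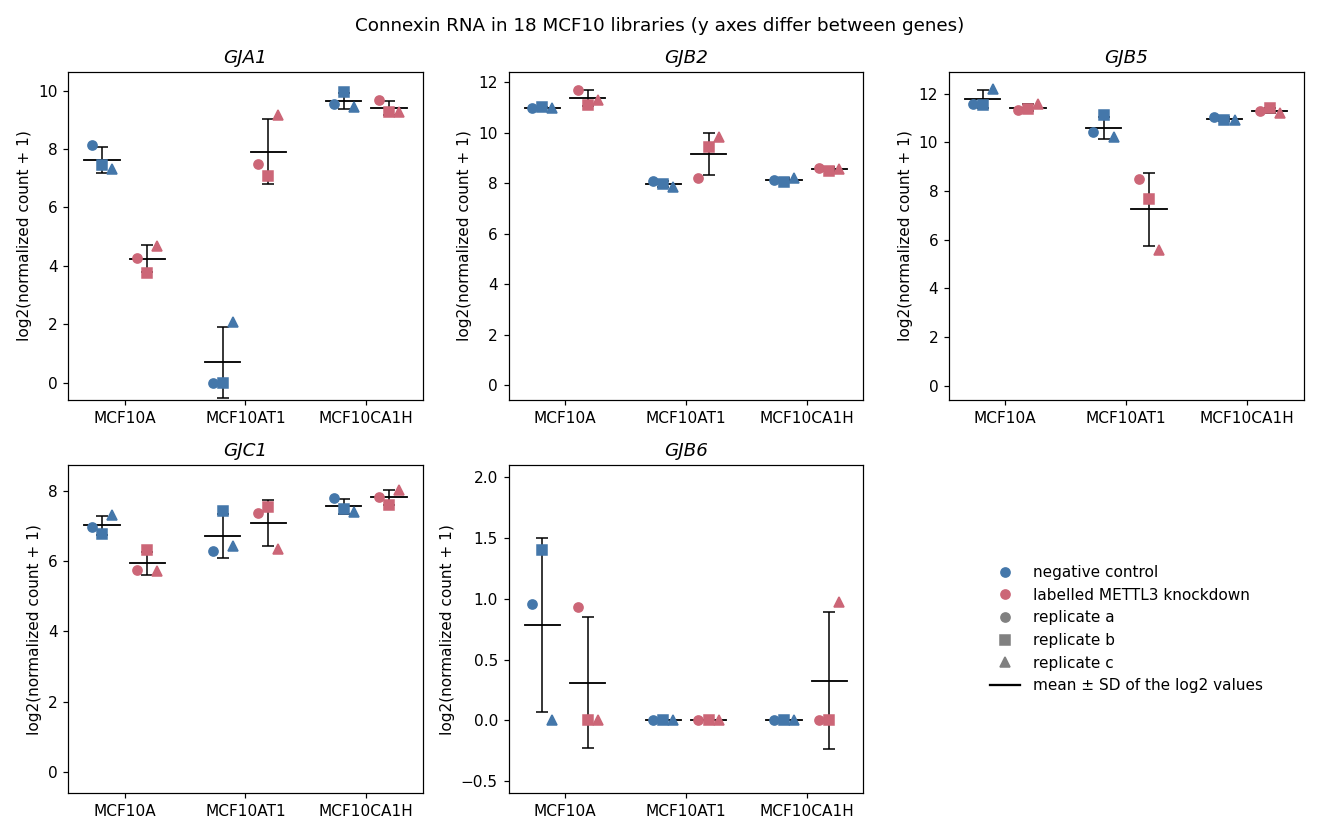
Each point is the log2 of the normalized count plus 1 of a library, with controls in blue, labelled knockdown in red, the marker shape giving the replicate letter, and the bar and whiskers the mean ± SD of the 3 log2 values. GJA1 is near 0 in the MCF10AT1 controls (0, 0 and 3.26 normalized counts) and GJB5 is lowest in the MCF10AT1 labelled knockdown (364, 201 and 46.3), while GJB6 does not exceed 1.64.

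Differences between the lines were first taken from the 9 control libraries, by a limma fit on log2(normalized count + 1) with p adjusted by Benjamini-Hochberg over all 15652 genes tested. In MCF10AT1 against MCF10A, 3 of the 4 tested genes of the 5 were lower and none was higher, where 28.1% of all genes tested were called, 13.3% higher and 14.7% lower. With connexins outside the 5 included, 3 of 8 tested were lower and 2 higher, the 2 being GJC3 and GJD3. GJA1 fell from a mean of 204 ± 66.5 to 1.09 ± 1.88 (SD, n = 3), or -6.94 on the log2 scale (SE 0.55, adjusted p = 0.000231), with 2 of the libraries listed at 0 and a size set in part by the pseudocount (-7.66 to -5.10 over the alternatives). GJB2 was 8.15-fold lower (log2 fold change -3.03, SE 0.18, adjusted p = 4.76e-05) and kept that call in all 17 alternatives. GJB5 was 2.23-fold lower (log2 fold change -1.17, SE 0.27, adjusted p = 0.0138). The GJB5 call was lost without MCF10A control c (adjusted p = 0.0564), without MCF10AT1 control a (0.0543) and in the fit of all 18 libraries (0.0648). GJC1 gave a log2 fold change of -0.31 (95% confidence interval -1.07 to 0.45, adjusted p = 0.493).

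In MCF10CA1H against MCF10A, 3 of the 4 were called, 1 higher and 2 lower, where 37.8% of all genes were called, 19.0% higher and 18.8% lower. GJB2 was 7.28-fold lower (log2 fold change -2.86, SE 0.18, adjusted p = 1.93e-05) and kept the call in all 17 alternatives. GJA1 was 3.93-fold higher (log2 fold change 2.0, SE 0.55, adjusted p = 0.0188), and its call was lost on leaving out MCF10A control b or c or any 1 MCF10CA1H control (adjusted p = 0.0511 to 0.069). The GJA1 call was kept in 12 of 17 alternatives, with adjusted p as low as 0.000995. The main fit took the spread over all 9 controls, MCF10AT1 included. GJB5 was 1.80-fold lower (log2 fold change -0.81, SE 0.27, adjusted p = 0.0373), a call lost in 10 of 17 alternatives, among them the fits without MCF10A control b (0.0596) or c (0.137), without MCF10AT1 control a (0.0519) and without MCF10CA1H control a (0.0844), b (0.0972) or c (0.108). In GJC1 the 2 groups did not overlap but the test was not passed (log2 fold change 0.54, 95% confidence interval -0.22 to 1.30, adjusted p = 0.235), in a comparison where 63.5% of genes did not overlap. In MCF10CA1H against MCF10AT1, where 21.8% of genes were called (11.0% higher, 10.8% lower) and 41.0% did not overlap, GJA1 was the only connexin of the 4 to pass (log2 fold change 8.93, SE 0.55, adjusted p = 2.38e-05). GJB2 differed by 0.16 (95% confidence interval -0.23 to 0.56) and GJB5 by 0.36 (-0.24 to 0.96). GJC1 gave 0.85 (adjusted p = 0.104), and passed with libraries rescaled to equal sums (0.0488) and without MCF10AT1 control b (0.0128).

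**Figure D2:**
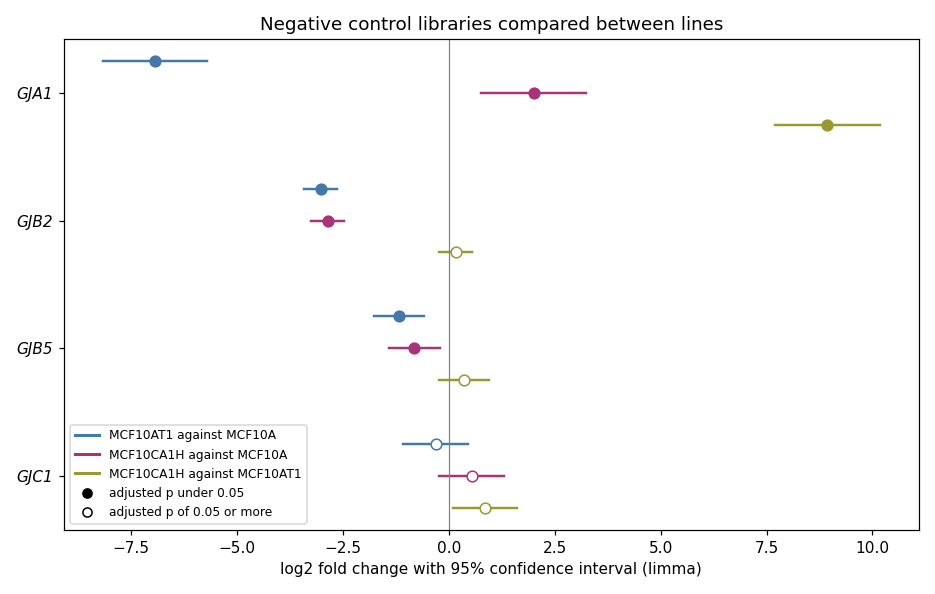
Log2 fold changes between the negative controls of 2 lines with 95% confidence intervals from limma, for the 4 connexins tested, with filled points for an adjusted p under 0.05. GJA1 falls by 6.94 from MCF10A to MCF10AT1 and is 8.93 higher in MCF10CA1H than in MCF10AT1, whereas GJB2 is lower in both derived lines than in MCF10A (-3.03 and -2.86).

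The study asked whether lowering m6A acts on growth and movement of the cells differently by stage, and RNA sequencing was used to find which genes differed with METTL3 knockdown. Each line was tested alone, 3 libraries labelled knockdown against 3 controls. In MCF10A, 1 of the 4 connexins tested was called, against 2.65% of all 15416 genes (1.16% higher, 1.49% lower). That share rested on 409 genes, a count of 1172 with the replicate letter as a block, 1418 without control a, 86 without control b, 204 without control c, and 72, 141 and 52 without labelled knockdown a, b and c. This was GJA1, which fell from 204 ± 66.5 to 18.5 ± 6.01 (SD, n = 3), 11-fold (log2 fold change -3.39, SE 0.37, adjusted p = 0.00803), and it kept the call in all 14 alternatives, with log2 fold changes of -3.61 to -3.14. GJC1 gave a log2 fold change of -1.08 with groups that did not overlap but did not pass (SE 0.29, adjusted p = 0.0983). Groups that did not overlap were found for 23.9% of genes. GJB2 differed by 0.38 (95% confidence interval -0.03 to 0.78, adjusted p = 0.305) and GJB5 by -0.34 (-0.81 to 0.12, adjusted p = 0.42).

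In MCF10AT1, 2 of the 4 were called, in opposite directions, against 13.0% of 16050 genes (7.07% higher, 5.96% lower). GJA1 rose from 1.09 ± 1.88 to 294 ± 241 (SD, n = 3; log2 fold change 7.21, SE 0.83, adjusted p = 0.000966). It kept the call in all 14 alternatives, and its fold change ranged from 5.37 to 7.93 on the log2 scale, with the ends set by pseudocounts of 5 and 0.5. GJB5 fell from 1610 ± 549 to 204 ± 159, 7.89-fold (log2 fold change -3.36, SE 0.69, adjusted p = 0.0146), and lost the call only without MCF10AT1 control a (log2 fold change -3.44, adjusted p = 0.0556). GJB2 was 2.52-fold higher by the means in groups that did not overlap, as did not 32.8% of genes, without passing (log2 fold change 1.19, SE 0.43, adjusted p = 0.117). With the replicate letter as a block the GJB2 difference passed (adjusted p = 0.0356), as it did without labelled knockdown a, the lowest of its 3 libraries (log2 fold change 1.66, adjusted p = 0.0276), and in the fit of all 18 libraries (0.00486). GJC1 overlapped between the groups (log2 fold change 0.37, 95% confidence interval -0.76 to 1.5, adjusted p = 0.673).

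In MCF10CA1H, 1 of the 4 was called, against 12.8% of 15127 genes (7.91% higher, 4.85% lower). GJB5 was 1.27-fold higher (log2 fold change 0.34, SE 0.10, adjusted p = 0.0461), with 3 of 3 labelled knockdown libraries above the controls. The GJB5 call was lost in 11 of 14 alternatives, including leaving out any 1 of the 6 libraries (adjusted p = 0.0581 to 0.15). GJB2 was 1.34-fold higher in groups that did not overlap, as was the case for 32.7% of genes, and did not pass (log2 fold change 0.42, SE 0.13, adjusted p = 0.0653). GJA1 differed by -0.22 (95% confidence interval -0.59 to 0.15, adjusted p = 0.423) and GJC1 by 0.26 (-0.15 to 0.66, adjusted p = 0.398).

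**Figure D3:**
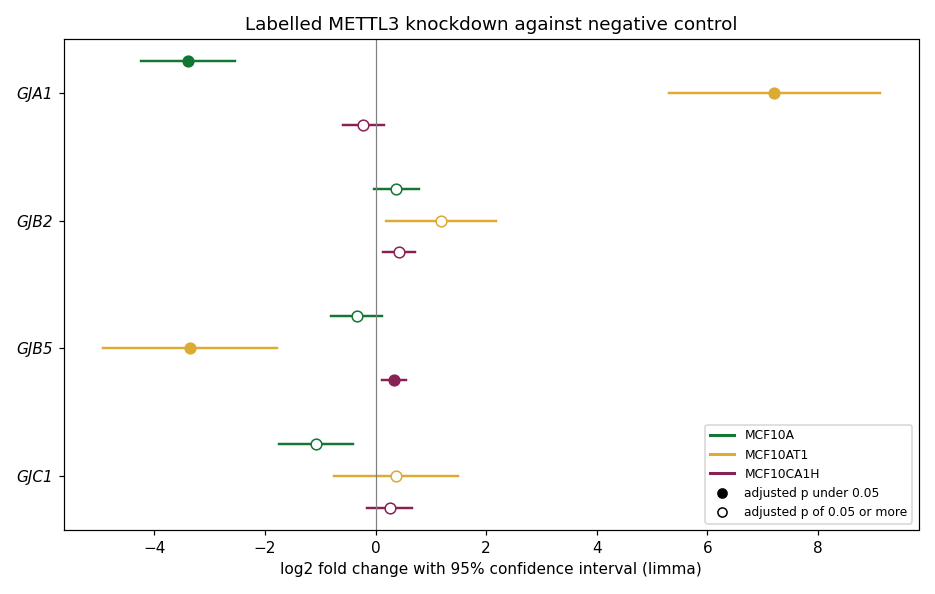
Log2 fold changes of the libraries labelled METTL3 knockdown over the negative controls of the same line, with 95% confidence intervals from limma and filled points for an adjusted p under 0.05. GJA1 is lower in MCF10A (-3.39), higher in MCF10AT1 (7.21) and near 0 in MCF10CA1H (-0.22), and GJB5 is lower in MCF10AT1 (-3.36).

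Whether the difference between labelled knockdown and control itself differed between lines was tested by interaction contrasts in a fit of the 18 libraries. Between MCF10AT1 and MCF10A, 3 of the 4 connexins differed, against 21.6% of 15897 genes (11.2% higher, 10.5% lower): GJA1 by 10.6 on the log2 scale (SE 0.78, adjusted p = 6.44e-08), GJB5 by -3.01 (SE 0.68, adjusted p = 0.00434) and GJC1 by 1.45 (SE 0.49, adjusted p = 0.0451). The GJC1 difference was lost in 18 of 26 alternatives, with adjusted p up to 0.127, and on leaving out 15 of the 18 libraries in turn. Between MCF10CA1H and MCF10A, where 5.34% of genes differed (3.65% higher, 1.69% lower), only GJA1 of the 4 passed (3.17, SE 0.78, adjusted p = 0.0246). That GJA1 call was lost with a pseudocount of 0.5 (adjusted p = 0.0537) and without MCF10A labelled knockdown a or b, MCF10CA1H control a or c, or MCF10CA1H labelled knockdown a or b (0.0556 to 0.0651). It was kept in 19 of 26 alternatives, with adjusted p as low as 0.000415. Between MCF10CA1H and MCF10AT1, where 18.2% of genes differed (9.67% higher, 8.51% lower), GJA1 differed by -7.43 (SE 0.78, adjusted p = 3.49e-06) and GJB5 by 3.70 (SE 0.68, adjusted p = 0.00105). For GJB2 the 3 interaction contrasts were 0.81, 0.04 and -0.76 (adjusted p = 0.179, 0.979 and 0.226), and the outer 2 of these passed without MCF10AT1 labelled knockdown a (1.28, adjusted p = 0.0023, and -1.24, adjusted p = 0.00356).

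GJB2 lies between GJA3, which encodes Cx46 of the eye lens and ends 26410 bases away, and GJB6, 29023 bases away. GJA3 went from 38.6, 23.8 and 15.9 to 129.7, 110.8 and 158.3 in MCF10A, a rise of 2.38 on the log2 scale (SE 0.38, adjusted p = 0.0212). This call was lost without control b (adjusted p = 0.0817) or labelled knockdown a (0.0945), b (0.0619) or c (0.104). In MCF10AT1 and MCF10CA1H the GJA3 fold changes were -0.66 and -0.78 (adjusted p = 0.562 and 0.255). GJB2 and GJA3 had a Pearson correlation of log2 values of 0.49 over the 18 libraries, which fall into 6 groups, below the 0.75 of GJB2 with ZMYM2, the next tested gene on the far side of GJA3. CRYL1, beyond GJB6, had 0.27 with GJB2 and fell in MCF10A (log2 fold change -1.05, SE 0.21, adjusted p = 0.0411). ZMYM2 was called in no labelled knockdown comparison (adjusted p = 0.624, 0.187 and 0.615).

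Of 17 connexin genes counted, 14 had values and 9 of these were outside the 5. Of the 9, 5 (GJA9, GJA10, GJB1, GJB7 and GJD4) stayed at or below 13.8 normalized counts and were not tested with the labelled knockdown, and 3 of the 17 (GJA4, GJD2 and GJE1) had no values. With the 5 genes included, 2 of 6 tested connexins were called in MCF10A (1 higher, 1 lower), 3 of 8 in MCF10AT1 (1 higher, 2 lower) and 2 of 7 in MCF10CA1H (2 higher, 0 lower), where 2.65%, 13.0% and 12.8% of all genes were called. The medians of their log2 fold changes were 0.02, -0.17 and 0.26, where those of all genes were -0.003, 0.02 and -0.02. GJA5, which encodes Cx40 of atrial muscle and endothelium, rose in MCF10CA1H from 41.1, 96.9 and 158.6 to 474, 452 and 634 (log2 fold change 2.57, SE 0.39, adjusted p = 0.00267), a call lost in the fit of all 18 libraries (SE 0.77, adjusted p = 0.131). In MCF10AT1 it went from 15.6, 16.2 and 17.5 to 9.35, 4.12 and 0 without passing (-2.21, adjusted p = 0.173). GJC3 fell in MCF10AT1 from 82.0, 66.1 and 29.8 to 2.25, 0 and 3.67 (log2 fold change -4.49, SE 0.80, adjusted p = 0.00803, and 0.057 without MCF10AT1 control a). GJD3 was called in none of the 3 lines (log2 fold changes 0.94, 0.32 and -0.32, adjusted p = 0.286, 0.685 and 0.709). Between the controls, 3 of 8 connexins were lower and 2 higher (GJC3 and GJD3) in MCF10AT1 against MCF10A. In MCF10CA1H against MCF10A, 2 were lower and 2 higher (GJA1 and GJA5). Against MCF10AT1, MCF10CA1H had 1 lower (GJC3) and 2 higher (GJA1 and GJA5). Of all genes, 28.1%, 37.8% and 21.8% were called. The calls of GJC3 and GJD3 in MCF10AT1 against MCF10A were each lost in 4 of 16 alternatives, and that of GJA5 against MCF10AT1 in 2 of 16.

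**Figure D4:**
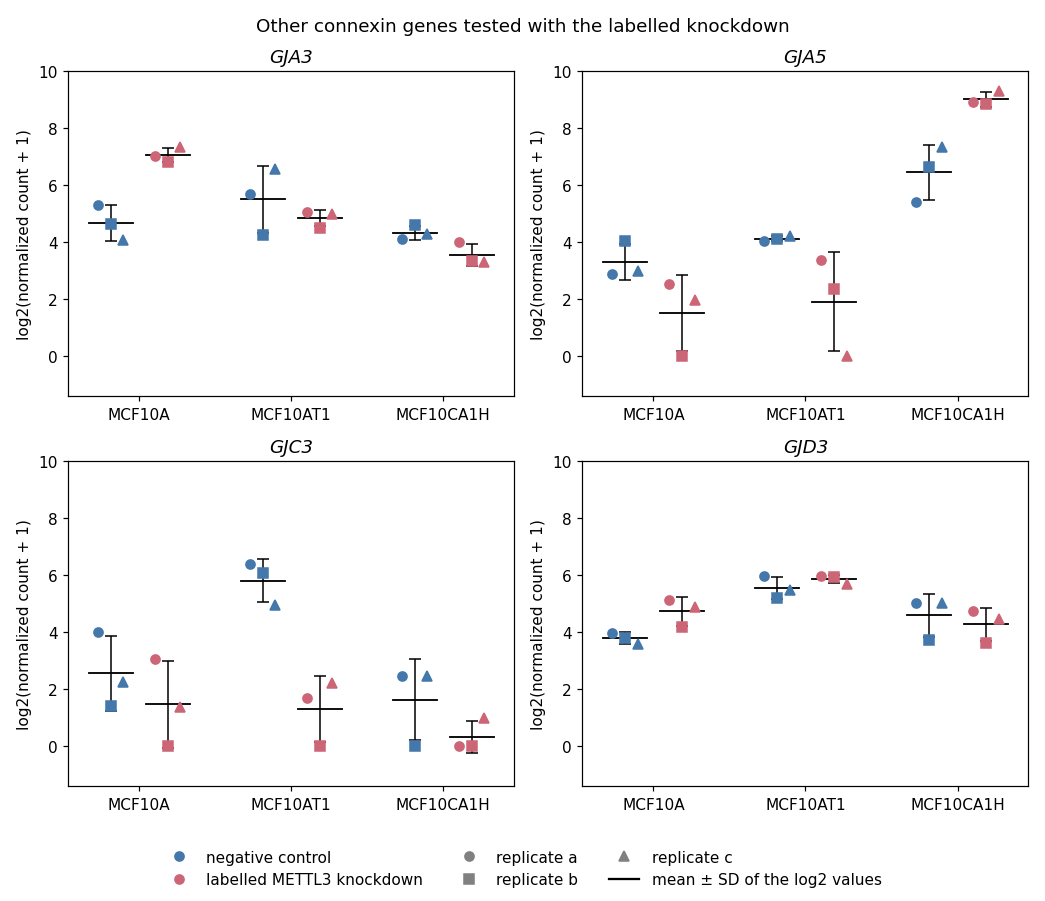
Log2 of the normalized count plus 1 in each library for the 4 further connexins counted that could be tested with the labelled knockdown in at least 1 line, with symbols as in the plot of the 5 genes by library. GJA3 is highest in the MCF10A labelled knockdown (129.7, 110.8 and 158.3 normalized counts), GJA5 in the MCF10CA1H labelled knockdown (474, 452 and 634) and GJC3 in the MCF10AT1 controls (82.0, 66.1 and 29.8).

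The pannexins form channels in the membrane of single cells and are unrelated to connexins in sequence. PANX2 rose with the labelled knockdown in MCF10AT1, from 23.5, 28.7 and 16.4 to 114, 95.1 and 105 (log2 fold change 2.18, SE 0.44, adjusted p = 0.014), and in MCF10CA1H (1.49, SE 0.30, adjusted p = 0.0104). The first call was lost without MCF10AT1 control a (0.0562) or labelled knockdown a (0.0556) or b (0.0708), and the second without MCF10CA1H labelled knockdown b (0.0526) and in the fit of all 18 libraries (0.134). PANX1 gave log2 fold changes of -0.38, -0.92 and 0.65 (adjusted p = 0.509, 0.147 and 0.0427), and the last was lost in 8 of 14 alternatives, with adjusted p up to 0.404, among them the fits without MCF10CA1H control a or c or labelled knockdown a or b. PANX3 was listed at 0 in all libraries except 2 MCF10A controls, which were at 0.94 and 0.93.

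A list of 39 genes linked to connexins was counted in the same fits. It held genes whose products scaffold, traffic, phosphorylate or turn over connexins, or join cells beside them. It also held some transcription factors and CCN3, which encodes a secreted protein. In MCF10A, 1 of 38 was called (2.63%, 1 higher), in MCF10AT1 7 of 39 (17.9%, 1 higher and 6 lower) and in MCF10CA1H 6 of 39 (15.4%, 4 higher and 2 lower), where 2.65%, 13.0% and 12.8% of all genes were called. By direction, the 6 lower and 1 higher of 39 in MCF10AT1 stood beside 5.96% lower and 7.07% higher over all genes. The MCF10A gene was CLDN1, the tight junction claudin, at 1.42 (adjusted p = 0.049). In MCF10AT1 the largest changes were CDH2, N-cadherin, at 7.39 (adjusted p = 0.000361), CDH1, E-cadherin, at -6.79 (0.000474), and OCLN, occludin, at -4.90 (0.00123). In MCF10CA1H they were TJP3, a tight junction scaffold, at -2.16 (0.0215), TRIM21, a ubiquitin ligase, at 1.62 (0.000134), and OCLN at -1.29 (0.012). The list's medians were -0.21, -0.44 and 0.12 on the log2 scale.

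Markers of cell types moved with the MCF10AT1 connexin changes. Beside the rise of GJA1 and the falls of GJB5 and GJC3 there, 6 of 8 general epithelial markers were lower, 3 of 6 basal epithelial markers were lower, and 6 of 9 mesenchymal markers tested were higher. The basal sums overlapped, at 91712 to 139130 in the controls and 59052 to 179328 in the labelled knockdown libraries. The basal markers ITGB4 (mean 34409 to 102830) and TP63 (357 to 559) went up without being called. The summed mesenchymal markers ranged from 3248 to 4764 normalized counts in the MCF10AT1 controls and from 118657 to 207403 in the labelled knockdown libraries. COL1A2 and COL6A2 were at 0 in all 3 controls. In the labelled knockdown COL6A2 reached a mean of 1116, but COL1A2 only 1.91, with 2 of 3 libraries at 0. The means of COL1A1 (117 to 81.8) and PDGFRB (21.8 to 19.0) did not rise. The general epithelial sums ranged from 51283 to 82097 and from 23856 to 48536. KRT8 and KRT18 made up most of these sums by group means (20061 to 14957 and 33635 to 23183). The other markers of that list fell by larger factors, among them CDH1 (3906 to 40.9), ESRP1 (2302 to 9.46) and ELF3 (4161 to 31.4). In MCF10CA1H, beside the rises of GJB5 and GJA5, 5 of 6 basal markers were higher, with sums of 293238 to 307135 in the controls and 402627 to 457877 in the labelled knockdown libraries, and no general epithelial marker of 7 was called. The mesenchymal sums there were 27291 to 32105 and 39430 to 50974, with 1 of 9 markers higher (FN1, fibronectin, from a mean of 3089 to 11792, log2 fold change 1.92, adjusted p = 7.99e-05) and 1 lower (COL3A1, a fibrillar collagen, -1.22, adjusted p = 0.0343), and 1 of 2 endothelial markers was lower (PECAM1, -1.20, adjusted p = 0.0389). In MCF10A, beside the fall of GJA1, 1 of 6 basal markers was higher and none of 8 general epithelial or 5 mesenchymal markers was called, and the mesenchymal sums were 8802 to 15877 and 5359 to 8044. None of 3 endothelial markers was called in MCF10A. PECAM1 went up there (mean 84.0 to 457.7) in groups that did not overlap, as for 23.9% of genes. TEK (18.8 to 2.86) and KDR (18.5 to 2.62) went down, also in groups that did not overlap. Endothelial sums stayed at or below 867 and leukocyte sums at or below 2343 normalized counts in every library. CD14, a monocyte marker, made up most of the leukocyte signal by group means, and its groups did not overlap in any of the 3 lines. Its means for control and labelled knockdown were 175.5 and 62.6 in MCF10A (adjusted p = 0.122), 898 and 2075 in MCF10AT1 (0.0567), and 646 and 311 in MCF10CA1H (log2 fold change -1.14, adjusted p = 0.0167). The general leukocyte marker PTPRC and the T cell marker CD3E had group means of at most 2.2 and 0.69. The part of these markers in the connexin results was not tested, and in bulk RNA fewer cells of a type and less RNA per cell cannot be told apart.

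For each gene, other genes with the most similar pattern over the 18 libraries were taken from 15897 genes by the Pearson correlation of log2 values, as a description of libraries that share line and arm. Nearest to GJA1 were ARHGAP31 (0.95), COL4A1 (0.94) and UGT8 (0.92). Nearest to GJB2 were IL20RB (0.95), P3H2 (0.95) and ALOX15B (0.94). GJB5 was close to SFN (0.98) and ITGB7 (0.97), and nearest to GJC1 were PLEKHO1 (0.92), HMCES (0.91) and IPO9 (0.91). The 4 connexins resembled one another less, with correlations from -0.58 (GJB2 and GJC1) to 0.56 (GJA1 and GJC1).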

How the data were processed

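RNA of 18 libraries was sequenced. The authors pseudo-aligned the reads with kallisto 0.46.1 (hg38), took gene sums through tximport, and applied the normalization of DESeq2 1.26.0 in R 4.1.1 (versions per the submitters' processing notes). The sample labels name polyA RNA and the protocol describes ribosomal depletion of total RNA, a conflict not settled here. The deposited values are normalized counts, a signal with 2 decimals, for 35933 genes, and 24646 further rows hold no values. Between 8.66% and 34.8% of values up to 20 lay within 0.02 of whole multiples of the most frequent low value, so read counts were not recovered and no count test was run.

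Values were tested as log2(normalized count + 1) in R 4.3.3 with limma 3.58.1 (lmFit, eBayes with an intensity trend), with a minimum mean of 10 normalized counts in the fitted libraries. Tests were two-sided, with Benjamini-Hochberg adjustment over all genes tested and a threshold of 0.05. Fold changes of low genes are understated by the pseudocount. Each line was fitted alone for labelled knockdown against control, the 9 controls together, and interactions over 18 libraries. Other steps used Python 3.11.15, pandas 2.3.3 and NumPy 2.4.6. Only the MCF10A labelled knockdown fit, of 6 libraries, was tried on simulated data, with 200 genes changed and the same noise for every gene. The control, interaction and block fits were not simulated. Alternatives were pseudocounts of 0.5 and 5, no filter or a mean of at least 50, no trend, equal library sums, other sets of libraries in the fit, the replicate block and each library left out.

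Deviations of same-letter libraries from their group means had correlations of 0.116 to 0.221 in MCF10A and 0.110 to 0.477 in MCF10AT1, all above 0.1. In MCF10AT1, however, control b with labelled knockdown a gave 0.251, above the 0.110 of the same-letter pair a. In MCF10CA1H the same-letter correlations were -0.011 to 0.046. The letters may thus mark pairs in MCF10A and MCF10AT1, from the data only, since no source says what a letter shares. The main tests left the letters out, and the replicate block was only an alternative.

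The members and gene lists were chosen with earlier results of these data known. Named were the 5 members, every other connexin or pannexin tested with the labelled knockdown, the 3 partner genes with the largest called change per line, the neighbours of the GJB2 cluster, and the 3 genes most like each member, except genes that are not reported here, which also left the connexin counts. Family members below the filter were named after their values were seen. Sequences came from RefSeq promoter windows and from GENCODE v44 transcripts on hg38.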

Additional observations from a re-analysis of the deposited data

Results flagged for a closer look

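The results below were listed because the difference between labelled knockdown and control differed between 2 lines by an interaction contrast (limma, 18 libraries, adjusted p under 0.05). Values are differences of log2 fold changes, first line minus second. No group had enough libraries for a test of single outlying libraries.

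For MCF10AT1 minus MCF10A, the connexins were GJA1 (10.6), GJB5 (-3.01), GJC1 (1.45) and GJA3 (-3.04). Beside them stood PANX2 (2.62), the junction genes CDH1 (-6.61), CDH2 (8.06), OCLN (-3.67) and CLDN1 (-5.50), and CRYL1 (1.19), the neighbour of GJB6. For MCF10CA1H minus MCF10A they were GJA1 (3.17), GJA3 (-3.16) and GJA5 (4.37), with TRIM21 (2.27) and CRYL1 (1.49). For MCF10CA1H minus MCF10AT1 they were GJA1 (-7.43), GJB5 (3.70) and GJA5 (4.78), with PANX1 (1.57), CDH1 (6.99), CDH2 (-7.43), OCLN (3.61), CLDN1 (4.02) and TRIM21 (2.13).

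The GJA5 value of 4.37 was lost in 9 of 26 alternatives (adjusted p up to 0.082), among them the fits without MCF10A control b or c, MCF10A labelled knockdown b, MCF10CA1H control a or b, or any 1 MCF10CA1H labelled knockdown library. The 2 GJA3 values kept their call in all alternatives in which they could be fitted.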

How the results depend on the processing

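Of 1035 values of single connexins and pannexins under the alternatives, 925 kept their direction and their side of the threshold and 110 did not. The cause was not tested for any of them. The count of connexins called (of the 4 tested) in MCF10CA1H labelled knockdown was 1, and 0 under no filter, no intensity trend, equal sums, the joint fit and the replicate block, and 0 to 0 with each library left out. With each library left out, the counts ranged from 1 to 3 for MCF10AT1 labelled knockdown (1 without control a), from 1 to 3 for MCF10CA1H against MCF10A controls, from 1 to 2 for MCF10CA1H against MCF10AT1 controls, and from 0 to 1 for the interaction of MCF10CA1H and MCF10A. That interaction gave 0 with a pseudocount of 0.5 and 2 in the fit of 12 libraries, and MCF10CA1H against MCF10AT1 controls gave 2 under equal sums. Direction turned for GJB2 in the interaction of MCF10CA1H and MCF10A (-0.10 under equal sums, and -0.0855 to 0.216 with each library left out) and for GJC1 in that of MCF10CA1H and MCF10AT1 (-0.48 to 0.12), none of which passed the test in any fit. Equal sums moved the median log2 fold change of all genes from 0.02 to -0.15 for MCF10AT1 labelled knockdown from -0.01 to -0.15 and from 0.05 to 0.16 for the MCF10AT1 controls against MCF10A and the MCF10CA1H controls against MCF10AT1, and from -0.004 to -0.26 and from -0.03 to -0.17 for the interactions of MCF10AT1 and of MCF10CA1H with MCF10A. The count of all genes called moved by over 1.5 times in the labelled knockdown comparisons of MCF10AT1 (2091, against 5146 in the joint fit, 3939 with the replicate block, and 1125, 1355 and 1020 without control a and labelled knockdown a and b) and of MCF10CA1H (1929, against 1123 with no intensity trend, 248 in the joint fit, and 1089 and 1114 without control a and labelled knockdown b), and of MCF10A with no intensity trend (237, against 409). Between controls it ranged, with each library left out, from 1661 (MCF10A b) to 8142 (MCF10AT1 c) around 4391 for MCF10AT1 against MCF10A, down to 3675 (MCF10CA1H c) from 5920 for MCF10CA1H against MCF10A, and from 1608 (MCF10CA1H b) to 5593 (MCF10AT1 c) around 3410 for MCF10CA1H against MCF10AT1. For the interaction of MCF10CA1H and MCF10A it was 849, with 2217 in the fit of 12 libraries, 1283 with the replicate block and down to 470 without MCF10CA1H labelled knockdown b. The replicate block changed, beside the GJB2 call given above, GJB5 in MCF10CA1H labelled knockdown (adjusted p = 0.0746) and GJB5 in MCF10CA1H against MCF10A controls (0.0647). In MCF10CA1H the same-letter correlations were near 0 (-0.011 to 0.046), which cannot show whether libraries of a letter were handled together. Fits that leave out a library of a group of 3 rest on the other 2. With no counts, how much of the spread at low values such as GJB6 is counting error is unknown.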
